A study of Mus musculus with 4 samples.

Results

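The 9 genes described here make, package, recapture and degrade catecholamines, the transmitters of the sympathetic nervous system. They are Th, Ddc, Dbh, Pnmt and Gch1 for synthesis, Slc6a2, Slc18a1 and Slc18a2 for transport, and Maoa for breakdown. They were picked by name, and all 9 were found among 22180 measured genes, each through 1 probe set that the platform annotation assigns to that gene alone. RNA came from 4 primary tumours of C57BL\6 x 129Sv/J mice, read on 1 Affymetrix array each. All 4 carried an Alk mutation, the TH-MYCN transgene and a Stat6-/- genotype and form 1 group, so no condition could be compared, and what the design gives is the level in each tumour and the spread between tumours. The labels do not give ages or treatments, or say that the tumours came from separate animals. The spread may therefore hold technical as well as biological differences.

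Neuroblastoma arises from sympathetic precursors, and its noradrenergic character is a textbook feature of the tumour. Tyrosine hydroxylase (Th) turns tyrosine into L-DOPA, DOPA decarboxylase (Ddc) makes dopamine, dopamine beta-hydroxylase (Dbh) makes noradrenaline inside the vesicle, and Pnmt methylates noradrenaline to adrenaline. Gch1 starts the synthesis of tetrahydrobiopterin, the cofactor of tyrosine hydroxylase. The vesicular transporters Slc18a1 (VMAT1, typical of chromaffin and other endocrine cells) and Slc18a2 (VMAT2, typical of neurons) load monoamines into vesicles, the noradrenaline transporter Slc6a2 takes the transmitter back up, and monoamine oxidase A (Maoa) degrades it. In the TH-MYCN model a rat tyrosine hydroxylase promoter drives human MYCN, which places the oncogene in cells that use the first enzyme of this pathway.

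Tumours are numbered 1 to 4 in the order of their records. Values are as deposited after RMA and are taken as log2, a base the labels do not state. RMA subtracts background, puts arrays on 1 distribution and reduces each probe set to a single value. The floor for detection was a 4-tumour mean of 6.17, under which 95% of 1394 olfactory and vomeronasal receptor genes lay. By this floor 8989 genes (40.5%) were detected. The arrays were not level: the median detected gene deviated from its own mean by 0.12, 0.04, -0.09 and -0.08 in tumours 1 to 4. Each deviation below is therefore also given relative to detected genes of like mean level, and called a relative deviation. Xist, which coats the silenced X chromosome of females, read 10.13 in tumour 4 against 3.89 to 3.95 elsewhere, and the Y-linked genes Eif2s3y (3.90) and Uty (3.89) were low in tumour 4 alone, so what sets tumour 4 apart cannot be told apart from sex. Alk measured 8.04 ± 0.30, Mycn 6.49 ± 0.37 and Stat6 5.83 ± 0.07 (SD, n = 4). Where the Stat6 probes lie relative to the deletion is not known, which leaves the genotype unchecked here. Whether the Mycn probes also read the human transgene was not tested.

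Of the 9 catecholamine genes, 8 were detected, against 40.5% of all genes, and Pnmt was not. The noradrenergic steps of the pathway were thus all above the floor, and the adrenaline-forming step was under it. A stricter floor, set so that 99% of receptor genes lay under it, left 7, without Slc18a1. Tissue checks lay beside this. The labels name the tissue as sternocleidomastoid muscle, and 0 of 12 skeletal muscle markers were detected, with member means from 3.63 to 5.86 and a summed linear signal of 350 to 409 across tumours. None of 9 adrenal cortex markers and none of 8 mast cell markers, a cell type that uses Slc18a2, were detected, with summed signals of 189 to 212 and 162 to 172. No marker was at 0, since RMA values have a background level. Sympathetic neuron markers were detected in 10 of 10 measured and chromaffin markers in 7 of 8.

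**Figure D1:**
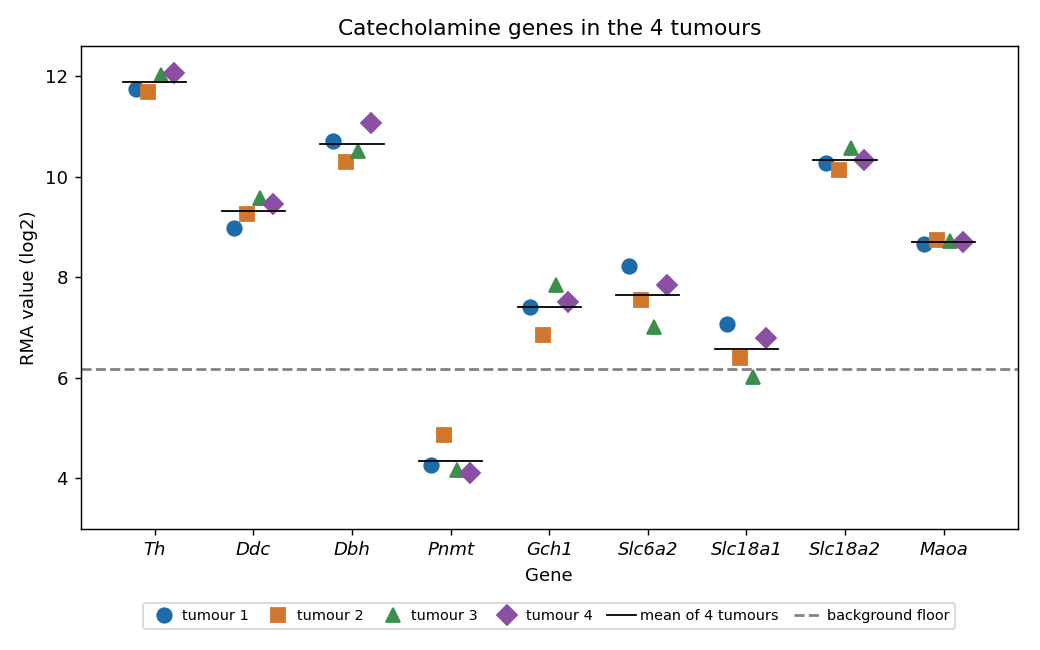
RMA value (log2) of each of the 9 genes in the 4 tumours; every symbol is 1 tumour, the bar is the mean of 4 and the dashed line is the background floor of 6.17. Pnmt lies under the floor in all 4 tumours, Slc18a1 dips under it in tumour 3 (6.01), and the other 7 genes lie above it throughout.

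Th (probe set 17498171) measured 11.75, 11.69, 12.01 and 12.05 in tumours 1 to 4. Tumours 3 and 4 were the high pair and tumours 1 and 2 the low pair, and the whole range was 0.36, or 1.28-fold. Ddc (probe set 17260644) measured 8.98, 9.26, 9.58 and 9.47, with the same pairs high and low and a range of 0.60. Dbh (probe set 17368499) measured 10.70, 10.28, 10.51 and 11.07, with tumour 4 highest and tumour 2 lowest, 1.73-fold apart. Its order of tumours, 4 over 1 over 3 over 2, occurred in 3.24% of detected genes; that of Th, 4 over 3 over 1 over 2, in 2.57%, and that of Ddc, 3 over 4 over 2 over 1, in 1.86%. No other member had any of these 3 orders. Here and below, fewer cells of a type and less RNA per cell cannot be told apart, since the tumours were measured in bulk.

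Gch1 (probe set 17305748) measured 7.41, 6.86, 7.84 and 7.52 in tumours 1 to 4. Tumour 2 stood lowest and tumour 3 highest, 1.98-fold apart, the widest range among the enzymes of synthesis. Pnmt (probe set 17255992) measured 4.26, 4.86, 4.18 and 4.11. All 4 values were under the floor, and its mean of 4.35 exceeded that of 63.2% of the receptor genes. A level under the floor does not show that a transcript is missing, and its higher value in tumour 2 was not read as a difference.

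Promoter stretches of Th, Slc18a2, Gch1 and Dbh are shown because each holds a cAMP response element or part of it. They were chosen for the motif and not for their pattern across tumours. Of the 9 genes, 6 matched a RefSeq promoter window (GRCm38.p6, 250 bases before to 50 after the start), Ddc with 2 windows, which makes 7. Windows of Pnmt, Slc6a2 and Slc18a1 were not used here. Capitals mark TGACGTCA, the full cAMP response element, in Th and Slc18a2, and its first 5 bases in Gch1 and, as read on the opposite strand, in Dbh. The Th stretch is chr7:142899996-142900145 on the minus strand, that of Slc18a2 chr19:59260863-59260892 on the plus strand, that of Gch1 chr14:47189414-47189563 on the minus strand and that of Dbh chr2:27165257-27165506 on the plus strand, each written 5′ to 3′ along the gene.
Th: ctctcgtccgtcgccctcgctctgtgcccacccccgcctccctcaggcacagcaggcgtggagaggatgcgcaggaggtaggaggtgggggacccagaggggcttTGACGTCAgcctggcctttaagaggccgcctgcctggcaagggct
Slc18a2: agcgctgtccgTGACGTCAgagccggactg
Gch1: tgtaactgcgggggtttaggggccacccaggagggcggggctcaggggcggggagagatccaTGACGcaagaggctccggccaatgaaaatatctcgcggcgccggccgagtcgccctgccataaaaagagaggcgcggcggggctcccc
Dbh: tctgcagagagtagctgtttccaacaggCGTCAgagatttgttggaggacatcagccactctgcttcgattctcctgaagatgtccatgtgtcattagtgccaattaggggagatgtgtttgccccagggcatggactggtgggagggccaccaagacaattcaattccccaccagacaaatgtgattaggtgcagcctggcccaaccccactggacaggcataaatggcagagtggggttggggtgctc

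The full element was present in 2 of the 7 windows and in 1.79% of all 32851 windows of that length, searched on both strands. In Th it covered bases 45 to 38 before the start, and in Slc18a2 it began 4 bases before the start and ended 4 bases after it. The part site TGACG, which lies within the full element, was present in 5 of 7 windows (Th, Slc18a2, Gch1, Dbh and Maoa) against 20.8% of all. Neither window of Ddc holds it. Any link of the site to the levels across tumours was not tested. GGGCGG, a site of SP1, was found in 4 of 7 windows against 35.7%. AGATAA, a site of the Gata2 family, was found in 1, that of Slc18a2, against 11.2%. GCGNGGGCG, a site of EGR proteins, was found in 1, that of Th, against 5.55%. The E-box CACGTG, bound by MYC proteins, and the palindromic dimer site of paired-class homeodomain proteins were in none of the 7 windows, against 7.15% and 0.487% of all. These counts describe letters in the windows and not binding.

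Among the transporters, tumour 3 held the highest value of Slc18a2 and the lowest values of Slc6a2 and Slc18a1. Slc18a2 (probe set 17360823) measured 10.27, 10.14, 10.57 and 10.33 in tumours 1 to 4, highest in tumour 3. Gch1 and Slc18a2 had the same order, 3 over 4 over 1 over 2, which 2.17% of detected genes had. Slc6a2 (probe set 17503866) measured 8.22, 7.55, 7.01 and 7.84, and Slc18a1 (probe set 17509780) 7.08, 6.39, 6.01 and 6.78. Both were highest in tumour 1 and lowest in tumour 3, 2.31-fold apart for Slc6a2. The value of Slc18a1 in tumour 3 was under the floor of 6.17, so its span is given as at least 1.88-fold, with that value raised to the floor, and was 2.09-fold as deposited. On the same terms the log2 difference of Slc18a2 over Slc18a1 was larger in tumour 3 than in tumour 1 by at least 1.22 (2.32-fold), and by 1.37 as deposited. The difference of Slc6a2 over Slc18a1 spanned 0.16 over the 4 tumours as deposited and 0.31 with the value raised.

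Maoa (probe set 17533474) was nearly constant, at 8.67, 8.73, 8.71 and 8.70. Its range of 0.07 was narrower than that of all but 0.779% of detected genes. Relative to genes of like level the range was 0.27, wider than in 36.9% of all detected genes, so its flatness belonged to the values as deposited. Maoa lies on the X chromosome, and its value in tumour 4, the tumour with high Xist, was within the span of the other 3. Maob, the second monoamine oxidase and also X-linked, measured 7.29, 7.24, 7.49 and 7.18.

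In all, 2 of 8 detected members, Slc6a2 and Slc18a1, spanned at least 1 log2 unit (2-fold), against 4.26% of detected genes. The median range over the 8 was 0.70, against 0.41 over all detected genes. Slc18a1 lay just inside the limit at 1.06 and Gch1 just outside it at 0.98. With values under the floor raised to it, Slc18a1 spanned 0.91 and the count was 1. The count rests on tumours 1 and 3: it was 0 without tumour 1 and 0 without tumour 3, since these hold the extremes of both genes. It was 1 (Gch1) for relative deviations, a limit that 4.27% of detected genes passed. On that scale the ranges were 1.10 for Gch1, 0.96 for Dbh, 0.94 for Slc6a2, 0.90 for Slc18a1, 0.84 for Ddc, 0.61 for Slc18a2 and 0.53 for Th. With 1 array per tumour no error within a tumour is known, so tumours next to each other in an order could not be shown to differ.

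**Figure D2:**
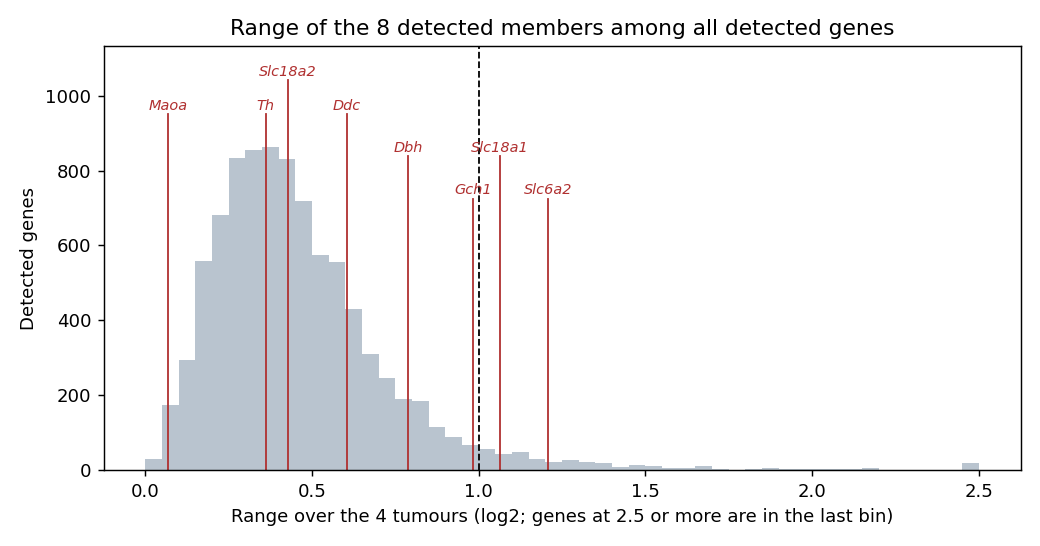
Histogram of the range over the 4 tumours (log2) for 8989 detected genes, with red lines at the 8 detected catecholamine genes and a dashed line at 1 log2 unit. Maoa lies at the narrow end (0.07), Th (0.36) and Slc18a2 (0.43) near the median of 0.41, and Slc6a2 (1.21) and Slc18a1 (1.06) past the dashed line.

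The relative deviations separated the members into patterns. Th, Ddc, Gch1, Slc18a2 and Maoa lay below 0 in tumours 1 and 2 and above 0 in tumours 3 and 4. That made 5 of 8 members, against 18.4% of detected genes, a pattern picked after the values were seen. Over the tumours that remained with 1 left out, 3 of 8 had it without tumour 2, against 19.0% of detected genes, since Gch1 and Slc18a2 came to -0.0013 and -0.0052 in tumour 4. Without tumour 3, Gch1 left the pattern, at 0.035 in tumour 1, and Dbh joined. Gch1 showed it most widely, from -0.59 in tumour 2 to 0.52 in tumour 3, and Ddc ran from -0.47 in tumour 1 to 0.37 in tumour 3. Th stood at -0.22, -0.27, 0.24 and 0.26 in tumours 1 to 4. For Maoa and Gch1 the pattern rested on the relative scale. From their own means, Maoa deviated by 0.031 in tumour 2 and -0.003 in tumour 4, and Gch1 by 0.003 in tumour 1.

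Dbh followed neither group. Its relative deviations were -0.03, -0.44, -0.03 and 0.51 in tumours 1 to 4, so that tumours 1 and 3 were alike and tumours 2 and 4 stood apart. Without tumour 4 it lay above 0 in tumours 1 and 3, at 0.14 and 0.15. The 8 detected members shared 1 feature: each lay below 0 in tumour 2 and above 0 in tumour 4, as did 36.0% of detected genes. In deposited values 7 of 8 were higher in tumour 4 than in tumour 2, against 35.0% of detected genes, and Maoa was the exception. The shared feature was picked after the values were seen and rests in part on tumours 1 and 2: without tumour 2, 6 of 8 lay above 0 in tumour 4 (49.9% of detected genes), without Gch1 and Slc18a2, and without tumour 1, 7 of 8 had it (37.4%), with Slc6a2 at 0.00 in tumour 2.

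**Figure D3:**
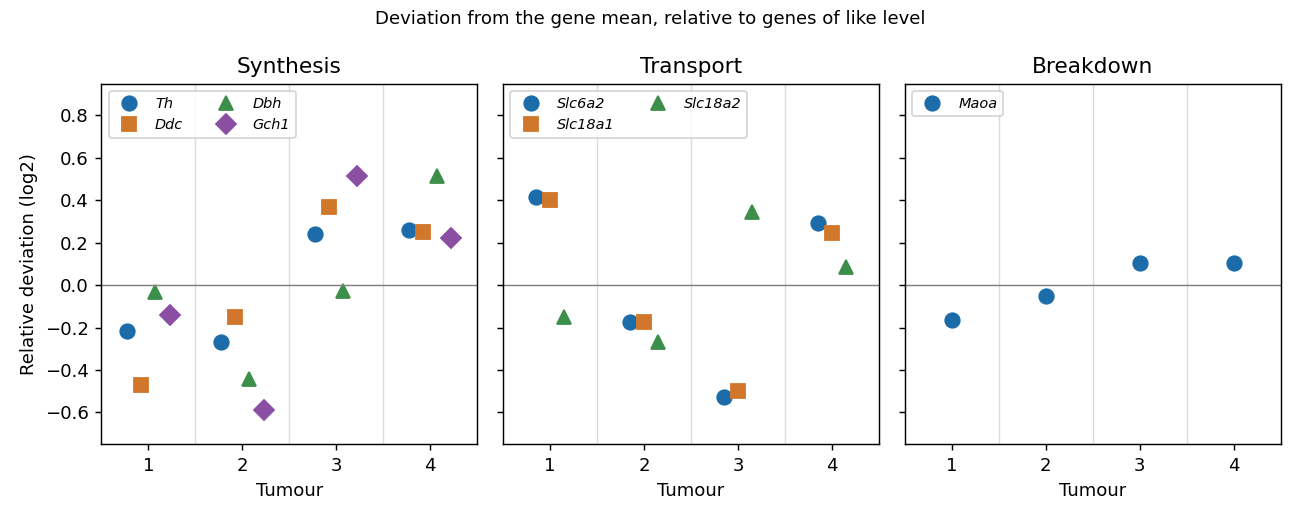
Relative deviation (log2) of the 8 detected members in each tumour, in panels for synthesis, transport and breakdown; each symbol is 1 gene in 1 tumour and the line at 0 is the gene's own mean after the shift of genes of like level is removed. Slc6a2 and Slc18a1 lie together in every tumour and opposite to Slc18a2 in tumours 1 and 3.

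Slc6a2 and Slc18a1 were each other's nearest gene. The likeness of patterns was measured as the root mean square difference of relative deviations over the 4 tumours. It was 0.028 log2 units for this pair, rank 1 of 8988 other detected genes from either side. The distance used the value of Slc18a1 in tumour 3 as deposited, which was under the floor. It was not computed with that value raised to the floor. Under the stricter floor Slc18a1 was not detected, so the pair had no rank. Among 383 genes with a range of at least 1, the distance to the nearest gene had a median of 0.065, and 11.0% had one at or below 0.028. The rank depended on the tumours and the scaling: with 1 tumour left out Slc18a1 ranked 2 to 5 from Slc6a2, and Slc6a2 ranked 1 to 12 from Slc18a1, the 12 without tumour 1. With arrays centred on their median the ranks were 3 and 4. Their shared order, tumour 1 over 4 over 2 over 3, occurred in 5.73% of detected genes. By contrast Slc18a2 ranked 8197 from Slc6a2 and 8198 from Slc18a1.

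Outside the pathway, the genes nearest to Slc6a2 were Rnd3 (0.061), Fras1 (0.070) and Dpysl4 (0.086), and those nearest to Slc18a1 were Dpysl4 (0.064), Rnd3 (0.066) and Txnip (0.070). Rnd3 measured 7.89, 7.28, 6.87 and 7.66 in tumours 1 to 4. Dpysl4, of the collapsin response mediator family, measured 6.96, 6.24, 5.92 and 6.56. All 4 of these genes had the order of the pair, which their choice by likeness implies. In tumour 3, where each was lowest, Dpysl4 (5.92) and Fras1 (6.01) were under the floor. Among the other members, Th was nearest to Slc18a2 (0.107) and Slc18a2 ranked 257 from Th, while Dbh ranked 2798 from Th.

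Both Slc6a2 and Slc18a1 lie on mouse chromosome 8, at separate places. The 10 detected genes on either side of each, by RefSeq order, had median relative deviations between -0.02 and 0.05 in the 4 tumours, and 0 of those 20 neighbours of either gene spanned 1 log2 unit. All 511 detected genes of the chromosome had medians between -0.02 and 0.01. The deviations of the pair, 0.41 and 0.40 in tumour 1 and -0.53 and -0.50 in tumour 3, were thus not seen in their neighbours. The other members lie on chromosomes 2 (Dbh), 7 (Th), 11 (Ddc and Pnmt), 14 (Gch1), 19 (Slc18a2) and X (Maoa), and the medians of their neighbours lay between -0.14 and 0.12. For Th they were -0.08, -0.01, 0.04 and 0.11, with the sign of Th in all 4 tumours. For Gch1 and Slc18a2 the signs were opposite to the gene's in all 4. Neighbours spanning 1 log2 unit numbered 3 for Ddc, 2 each for Th, Pnmt and Slc18a2, and 0 for the rest.

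**Figure D4:**
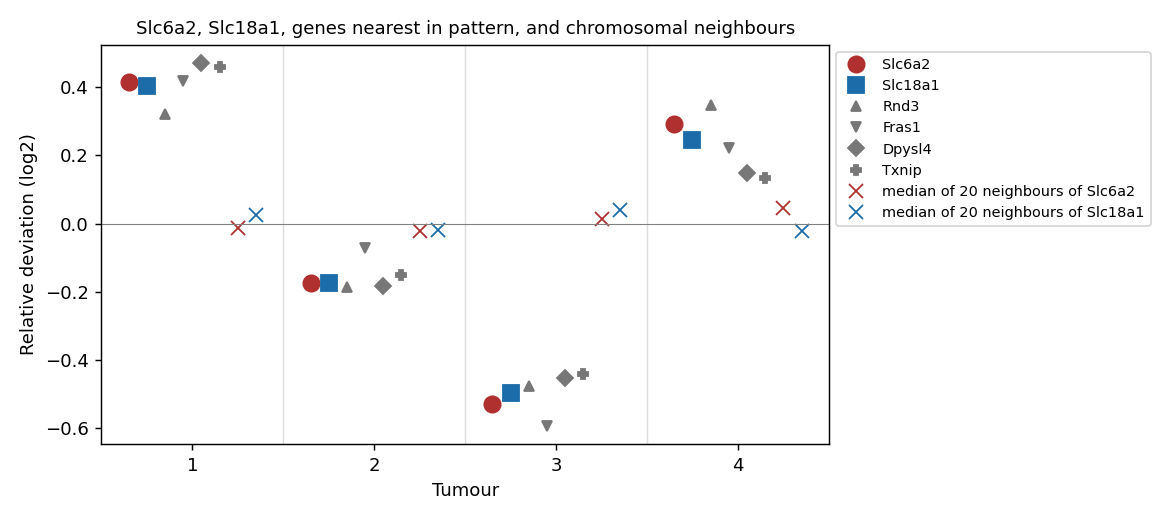
Relative deviation (log2) in each tumour of Slc6a2 and Slc18a1 (large symbols), of the 4 genes nearest in pattern (grey) and of the median of the 20 chromosomal neighbours of each (crosses). The pair runs from 0.41 and 0.40 in tumour 1 to -0.53 and -0.50 in tumour 3, with no value raised to the floor. The neighbour medians stay between -0.02 and 0.05.

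Genes that supply, regulate or border the pathway were taken from 6 lists. Of 68 measured, 54 were detected and 3 of these spanned 1 log2 unit, with a median range of 0.38, against 0.70 for the 8 members and 0.41 for all detected genes. Tetrahydrobiopterin and precursor supply had 7 of 9 detected. Spr, sepiapterin reductase, measured 6.78 ± 0.18, and Qdpr, which regenerates the cofactor, 7.28 ± 0.06 (SD, n = 4). Of the amino acid transporters in that list, Slc7a8 ran from 6.70 in tumour 4 to 7.65 in tumour 1, while Slc3a2 measured 9.43 ± 0.16 (SD, n = 4). In deposited values none of these 4 was highest in tumour 3, where Gch1 was. In relative deviations Slc3a2 was, at 0.06 against 0.05 in tumour 2.

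The vesicle proton pump and cofactor list had 14 of 14 detected and 0 spanning 1 log2 unit. Its widest members were the copper pump Atp7a, at 9.16, 8.81, 8.50 and 9.04, and the copper importer Slc31a1, at 9.85, 9.51, 9.20 and 9.75. Dbh is a copper enzyme, and any link to these 2 genes was not tested. In deposited values both had the order of Slc6a2. In relative deviations Atp7a (0.27) and Slc31a1 (0.28) were highest in tumour 4, as Dbh was (0.51). Atp7a and Slc31a1 were nearest to each other among all detected genes, at a distance of 0.0089. Among 742 genes with a range of 0.6 to 0.7, 19.5% had a gene at or below that distance. Of the pump subunits, Atp6v1h measured 8.20 ± 0.27 and Atp6v1b2 10.81 ± 0.07 (SD, n = 4).

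Other transporters of amine transmitters had 3 of 6 detected. Slc29a4, the plasma membrane monoamine transporter, measured 8.36 ± 0.15 and Slc18b1, a vesicular polyamine transporter, 7.73 ± 0.22 (SD, n = 4). Slc18a3, the vesicular acetylcholine transporter, measured 6.98, 7.34, 7.49 and 6.51, highest in tumour 3 and lowest in tumour 4. Slc6a3, the dopamine transporter, was under the floor at 5.62 ± 0.22 (SD, n = 4). None of 2 measured serotonin neuron markers were detected, with a summed signal of 58 to 78, and 2 of 6 dopamine neuron markers were, Lmx1b at 6.25 ± 0.14 and Nr4a2 at 6.79 ± 0.08 (SD, n = 4). Among 3 cholinergic markers only Chrna3, a nicotinic receptor subunit of sympathetic neurons, was detected, at 8.91, 8.35, 7.66 and 8.97.

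Of the other catabolic enzymes, 6 of 11 were detected. Of 3 detected aldehyde dehydrogenases, which act on the aldehyde left by monoamine oxidase, Aldh2 and Aldh9a1 were lowest in tumour 3: Aldh2 measured 7.29, 6.91, 6.39 and 6.55, and Aldh9a1 8.99, 8.78, 8.17 and 8.50. Adh5 measured 7.83, 7.82, 7.45 and 7.82, with tumour 3 low. Akr1a1, an aldehyde reductase, was flat in deposited values, at 10.53 ± 0.08 (SD, n = 4). Its range in relative deviations was 0.25, wider than in 30.7% of detected genes. Genes that regulate tyrosine hydroxylase, kinases, phosphatases and 14-3-3 proteins, had 12 of 13 detected and 0 spanning 1 log2 unit. The widest was Prkar2b, a regulatory subunit of protein kinase A, from 7.91 in tumour 4 to 8.55 in tumour 2, and Ppp2ca, Ywhaz and Ywhah had ranges of 0.38, 0.38 and 0.20.

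Lineage transcription factors had 12 of 15 detected, and 3 of them spanned 1 log2 unit. Gata2 measured 8.77, 8.02, 8.29 and 9.07, in the order of Dbh, which 3.24% of detected genes had. Mycn, at 6.60, 6.01, 6.46 and 6.89, had that order too and ranked 11 of 8988 in nearness to Dbh, and Gata2 ranked 69. The value of Mycn in tumour 2, its lowest, was under the floor and cannot be told from background. Hand2 shared the order of Dbh as well, named after its values were seen. Hand1 was lowest in tumour 3, at 7.55 against 8.39 to 8.61. Epas1, the hypoxia factor HIF-2 alpha, measured 7.51, 6.45, 6.01 and 6.22. It was highest in tumour 1 and lowest in tumour 3, as Slc6a2 and Slc18a1 were. The value of Epas1 in tumour 3 was under the floor. Gata3 was nearly constant in deposited values, at 8.05 ± 0.04 (SD, n = 4). Its range in relative deviations was 0.29, wider than in 39.4% of detected genes.

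Markers of other cells also varied between the tumours. Fibroblast markers, 7 of 9 detected, had a summed signal of 2514, 1529, 1653 and 1181 in tumours 1 to 4. The sum was highest in tumour 1, with Dcn from 6.17 to 8.26 and Postn from 7.57 to 9.44. Fbln1 was highest in tumour 2. By relative deviation 5 of the 7 lay above 0 in tumour 3, where Slc6a2 and Slc18a1 lay below it. In tumour 4, where Slc6a2 and Slc18a1 lay above 0, 0 of the 7 did. Macrophage markers, 10 of 14 detected, summed to 3643, 4084, 2427 and 3689. The sum was lowest in tumour 3, with Csf1r from 5.64 to 6.90 and Lyz2 from 9.41 to 10.49. Csf1r was under the floor of 6.17 in tumours 3 and 4. In tumour 3, 9 of the 10 lay below 0 in relative deviation, and Cx3cr1 lay above, at 0.10. Of 5 measured Schwann cell markers only Fabp7 was detected, from 6.49 in tumour 3 to 9.54 in tumour 1. The list summed to 894, 489, 228 and 442, a sum with 1 detected gene. Of those under the floor, Sox10 (5.87) and S100b (4.85) were highest in tumour 3, and Erbb3 (5.87) and Cdh19 (4.38) in tumour 1. Endothelial markers had 2 of 9 detected, Cdh5 and Egfl7, and summed to 418 to 460. The part of these cells in the values of Slc6a2 and Slc18a1, which were highest in tumour 1 and lowest in tumour 3, was not tested.

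The lists of sympathetic neuron and chromaffin markers differed in the tumour where their median was highest. Whether the 2 lists mark separate cell states was not tested. Of the chromaffin list Penk (4.24) was under the floor, as was Pnmt. Sympathetic neuron markers had a median relative deviation of 0.21 in tumour 4, with 8 of 10 above 0, and Prph ran against this, from 7.51 in tumour 4 to 9.32 in tumour 1. Uchl1 ran from 10.57 in tumour 3 to 11.21 in tumour 2. Chromaffin markers had a median of 0.42 in tumour 3, with 7 of 7 above 0, though not all were highest there. Npy was, at 9.62 against 7.75 in tumour 4, whereas Scg2 was highest in tumour 4, at 9.27 against 9.06 in tumour 3. Chga, named after its values were seen, was also highest in tumour 4, at 10.15 against 9.93. Tumour 3 was also where Gch1, Ddc and Slc18a2 were highest. It was, in contrast, where the chromaffin-type transporter Slc18a1 was lowest.

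**Figure D5:**
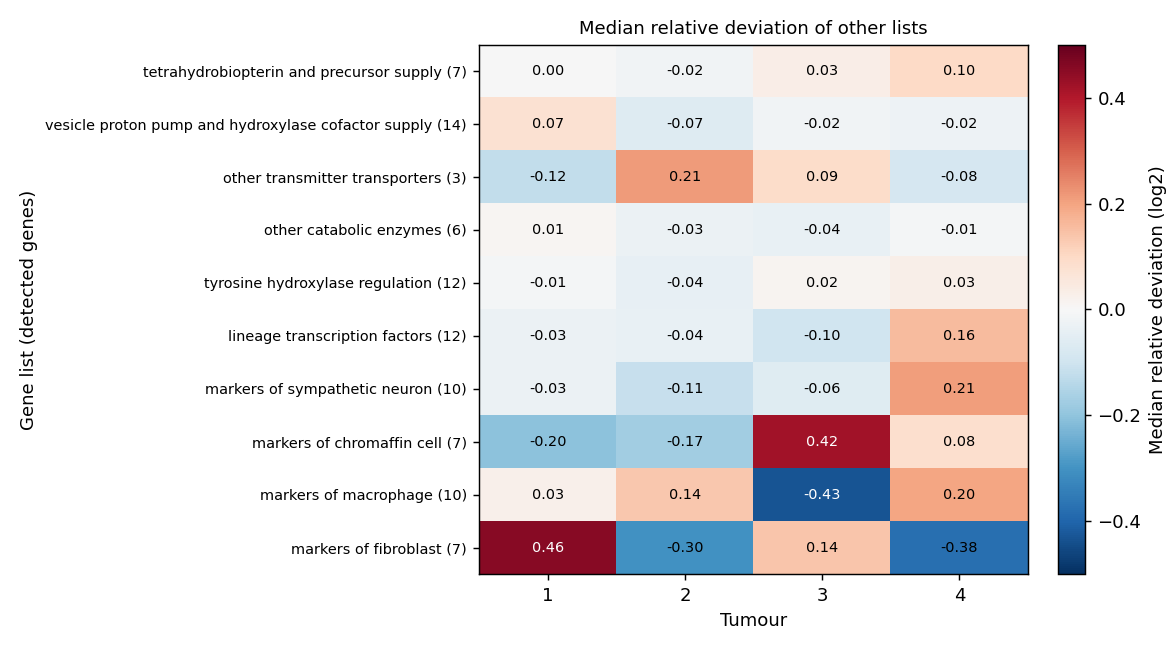
Median relative deviation (log2, colour and number) of the detected genes of each other list in each tumour, for lists with at least 3 detected genes; the number of genes is in brackets. Chromaffin markers are highest in tumour 3 (0.42), macrophage markers lowest there (-0.43), and fibroblast markers are highest in tumour 1 (0.46).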

How the data were processed

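The authors deposited a table of log values, read here as log2, for 41345 probe sets on each array. RMA and Partek are named in the submitters' processing notes, with no versions or settings. The log base is not stated, and the values run from 2.47 to 13.6. The annotation lists 23521 probe sets with 1 gene, 1814 with several and leaves 16010 unlisted. Entrez identifiers tied 23328 of the 23521 to the RefSeq table of GRCm38.p6, whose symbols are used. The probe set with the highest mean stood for a gene. The number of arrays limits the precision, and no detection calls were used.

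Relative deviations subtract the median deviation of detected genes in the same of 20 bins of mean level. With 1 group no p-value is given. The members, lists and tests were chosen with earlier results of these data known. Named genes were the members, per supporting list the 3 widest and 1 narrowest detected genes, per marker list the 2 widest, the 3 nearest in pattern to members spanning 1 log2 unit, Maob, Slc6a3, Stat6, Alk, Mycn, Xist, Eif2s3y and Uty. Slc22a3 was not analysed here, nor were protein sequences, a planned comparison. Identical values made up at most 0.22% of any 2 arrays. Alternatives were other floors, mean of probe sets, quantile normalization, centring, a 1.5-fold limit and each tumour left out. Code was tested on simulated data (Python 3.11.15, numpy 2.4.6, pandas 2.3.3).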

Additional observations from a re-analysis of the deposited data

Results flagged for a closer look

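Each named gene's 4 tumours were checked for a lone extreme value, by the gap to the nearest tumour over the range against Dixon's 95% critical value. Of 58 genes, 4 passed and none of them was one of the 9 catecholamine genes; chance passes about 1 in 20. Adh5 was low in tumour 3, at 7.45. Xist was high in tumour 4, at 10.13, and Eif2s3y and Uty were low there, at 3.90 and 3.89.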

How the results depend on the processing

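No paired analysis was possible because the tumours form 1 group. Of the members, 7 to 9 were detected under every floor tried, and 8 under mean of probe sets, quantile normalization, centring and each tumour left out. The number of detected members spanning the limit, 2 as reported, was 1 with the floor at the 99th percentile, 1 with arrays centred on the median of detected genes, 1 for relative deviations and 1 with values under the floor raised to it (both added after seeing the data), 3 after a further quantile normalization, 5 at a 1.5-fold limit and 0 to 2 with 1 tumour left out. Of the 8989 detected genes, 383 spanned it as reported, 398 with centring, 384 for relative deviations, 336 with values raised and 2172 at 1.5-fold. After a further quantile normalization 378 did. With the floor at the 99th percentile 206 did, and with a floor at the median receptor gene 584. These 2 floors change the total of detected genes. With 1 tumour left out 228 to 273 did, of 8421 to 9164 detected. The count of supporting genes was 12 at 1.5-fold, against 3. The relative deviation of Slc6a2 in tumour 2, -0.17 as reported, lay between -0.35 and 0.00 with 1 tumour left out, the upper value without tumour 1. Other signs turned with 1 tumour left out: Gch1 in tumour 1 (-0.14 to 0.035 without tumour 3) and in tumour 4 (0.22 to -0.0013 without tumour 2), Slc18a2 in tumour 4 (0.087 to -0.0052 without tumour 2), Dbh in tumours 1 and 3 (-0.03 and -0.03 to 0.14 and 0.15 without tumour 4), and Pnmt, under the floor, in tumours 1 and 3 (0.012 and 0.031 without tumour 2). Of the settings that kept all 4 tumours, a floor at the median receptor gene and no floor turned Pnmt in tumour 1, from -0.15 to 0.0062 and 0.017, and no other sign. The deposited table has no signal over background, so low values such as those of Pnmt and of Slc18a1 in tumour 3 cannot be told from background.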
